A study of Homo sapiens with 8 samples.

Results

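The 4 secreted matrix glycoproteins described here are fibronectin (FN1), SPARC, fibrillin-1 (FBN1) and follistatin-like 1 (FSTL1). They were picked by name as 4 of the 28278 named genes in the count and FPKM tables, as abundant matrix glycoprotein genes, with the FN1 level being higher at each step of the study as part of the choice. The FN1 values therefore describe that choice, and no p-value is given for any of the 4 genes. All 4 were among the 15684 genes with enough counts to be tested. The name "abundant" fits 3 of them. FBN1 was a gene of moderate to low level, and its values are given below.

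The cells were SK-Hep1, a liver cancer line of human origin known for endothelial features, profiled by poly(A) RNA-seq in 8 libraries. The groups, of 2 libraries each, were sorafenib-resistant cells with COL6A3 siRNA and recombinant human endotrophin (SR siCOL6A3 + rhETP), resistant cells with COL6A3 siRNA (SR siCOL6A3), resistant cells with control siRNA (SR siCtrl), and sorafenib-sensitive cells with control siRNA (SS siCtrl). Every group thus carried an siRNA, all cells grew in serum-containing medium, and the endotrophin analysed here was added only to silenced cells. Sorafenib is a kinase inhibitor used in liver cancer, COL6A3 encodes a chain of collagen VI, and endotrophin is the fragment cut from the C-terminal end of that chain. Both states come from 1 cell line, so resistance and the population that carries it cannot be told apart. The labels call the 2 libraries of a group biological replicates; spread is that between these libraries. The sources used here do not give the siRNA sequences, the endotrophin dose and time, the way resistance was obtained or the presence of sorafenib at harvest.

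Fibronectin is secreted as a dimer that cells stretch into fibrils through integrins, above all the integrin made of ITGA5 and ITGB1, and other matrix proteins are laid down on those fibrils. Fibrillin-1 forms the microfibrils that scaffold elastic fibres and hold latent TGF-beta through LTBP proteins, and its assembly by cultured cells depends on fibronectin. SPARC is a collagen-binding, calcium-binding protein that modulates adhesion to the matrix rather than building it. FSTL1 shares the follistatin and calcium-binding modules of SPARC and binds BMP ligands and their receptors. All 4 are typical products of mesenchymal cells, and in liver they are best known from stellate cells and fibroblasts.

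The 4 genes lie on different chromosomes, all on the minus strand of GRCh38 (RefSeq, GRCh38.p14). FN1 (gene ID 2335) spans chr2:215360865-215436068, SPARC (6678) chr5:151661096-151686915, FBN1 (2200) chr15:48408313-48645709 and FSTL1 (11167) chr3:120392293-120450992. The promoter sequence is shown for FN1 and FBN1, the 2 members whose level varied most, so that the stretch before each start can be set side by side. Each runs 5′ to 3′ on the minus strand, from the 250 bases before the RefSeq start; for FN1 the stretch is the 146 bases that no FN1 exon of GENCODE v29 covers (chr2:215436173-215436318), and for FBN1 it is the whole window (chr15:48644971-48645220), which lies within the annotated gene but in no exon. The SPARC and FSTL1 windows lie wholly in annotated exons and are not printed. Capitals mark exact matches to 7 short motifs searched on both strands: the TATA box (TATAAA), the CCAAT box, the SP1 core (GGGCGG), the cAMP response element (TGACGTCA), the AP-1 site (TGANTCA), and an E-box in the forms CACGTG and also CAGCTG.
FN1: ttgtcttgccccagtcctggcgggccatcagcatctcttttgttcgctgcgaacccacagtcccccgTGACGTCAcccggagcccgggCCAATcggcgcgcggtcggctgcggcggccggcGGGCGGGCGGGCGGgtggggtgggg
FBN1: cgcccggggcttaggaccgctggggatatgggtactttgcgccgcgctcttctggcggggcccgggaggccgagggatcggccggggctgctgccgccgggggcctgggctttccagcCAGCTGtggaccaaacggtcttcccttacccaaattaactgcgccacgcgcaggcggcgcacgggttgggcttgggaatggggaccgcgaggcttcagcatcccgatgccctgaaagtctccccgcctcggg
The FN1 stretch holds 1 TGACGTCA, 1 CCAAT box, and 3 overlapping matches to GGGCGG, of 6 in the whole window. The FBN1 window holds 1 CAGCTG and none of the other 6 motifs. The FSTL1 window holds 1 GGGCGG, and the SPARC window holds none of the 7. Of 35116 RefSeq promoter windows, 1.65% hold the cAMP response element, 32% the CCAAT box, 42.6% the SP1 core and 14% CAGCTG, while 10.7% hold the TATA box, 6.57% the AP-1 site and 6.34% CACGTG. These are matches of letters, not shown to be bound sites. The GC content of the windows was 76.4% in FN1, 69.6% in FBN1, 74.4% in FSTL1 and 59.2% in SPARC.

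Library totals were 30461668 to 44116043 counts, and replicates correlated at r = 0.958 to 0.972 across genes, which are not independent replicates, against 0.921 to 0.967 between groups. Replicates differed by more than counting noise, with a chi-square per degree of freedom of 15 to 18.5. The targeted gene was lower in both silenced groups than in resistant control cells, but the silenced groups also differed. COL6A3 was higher with endotrophin than without it (log2 fold change 0.65, SE 0.11). The part of that difference in the other values of the endotrophin comparison was not tested. COL6A3 stood at 65.9 and 71.3 CPM (counts scaled to library size) in silenced cells with endotrophin, 42.7 and 45.0 CPM in silenced cells, 135 and 136 CPM in resistant control cells, and 17.8 and 19.7 CPM in sensitive control cells. The line showed its mesenchymal genes at high level, with VIM at group means of 3531 to 4108 CPM, CAV1 at 446 to 1480 CPM and CD44 at 1394 to 1797 CPM. Of the endothelial genes, PECAM1, CDH5, KDR and TEK had no more than 12 counts in any library. VWF had up to 96 counts, with group means of 1.36 CPM in silenced cells with endotrophin, 1.67 in silenced cells, 0.0648 in resistant control cells and 0.453 in sensitive control cells. Of the hepatocyte genes, ALB, APOA1 and TTR were at 0 counts in all 8 libraries, and SERPINA1 and CPS1 were the only 2 of 10 above 1 CPM. Of 8 leukocyte and macrophage genes, PTPRC had at most 24 counts and CD3E and MS4A1 had 0 in all libraries, while CD68 stood at 94.0 to 108 CPM. In bulk libraries of this kind, fewer cells of a type and less RNA per cell cannot be told apart.

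Of the 4 genes, fibronectin spanned the widest range of CPM. FN1 had 7198 and 6604 CPM in silenced cells with endotrophin and 5533 and 6073 CPM in silenced cells, against 2728 and 2916 CPM in resistant control cells and 691 and 745 CPM in sensitive control cells. No 2 of the 4 groups overlapped, and the order was the same for every pair of libraries. Beside the 8.09-fold difference between silenced resistant cells and sensitive control cells (log2 fold change 3.02, SE 0.057), the 1.19-fold difference between silenced cells with and without endotrophin was small (0.25, SE 0.053). These 2 neighbours in the order were close: the 2 silenced libraries differed from each other by 540 CPM, and the lower library with endotrophin lay 531 CPM above the higher one without it. Silenced cells with endotrophin stood 9.62-fold above sensitive control cells (3.27, SE 0.058) and 2.45-fold above resistant control cells (1.29, SE 0.054). Counts were summed over all FN1 transcripts, so the alternatively spliced forms of fibronectin are not separated.

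**Figure D1:**
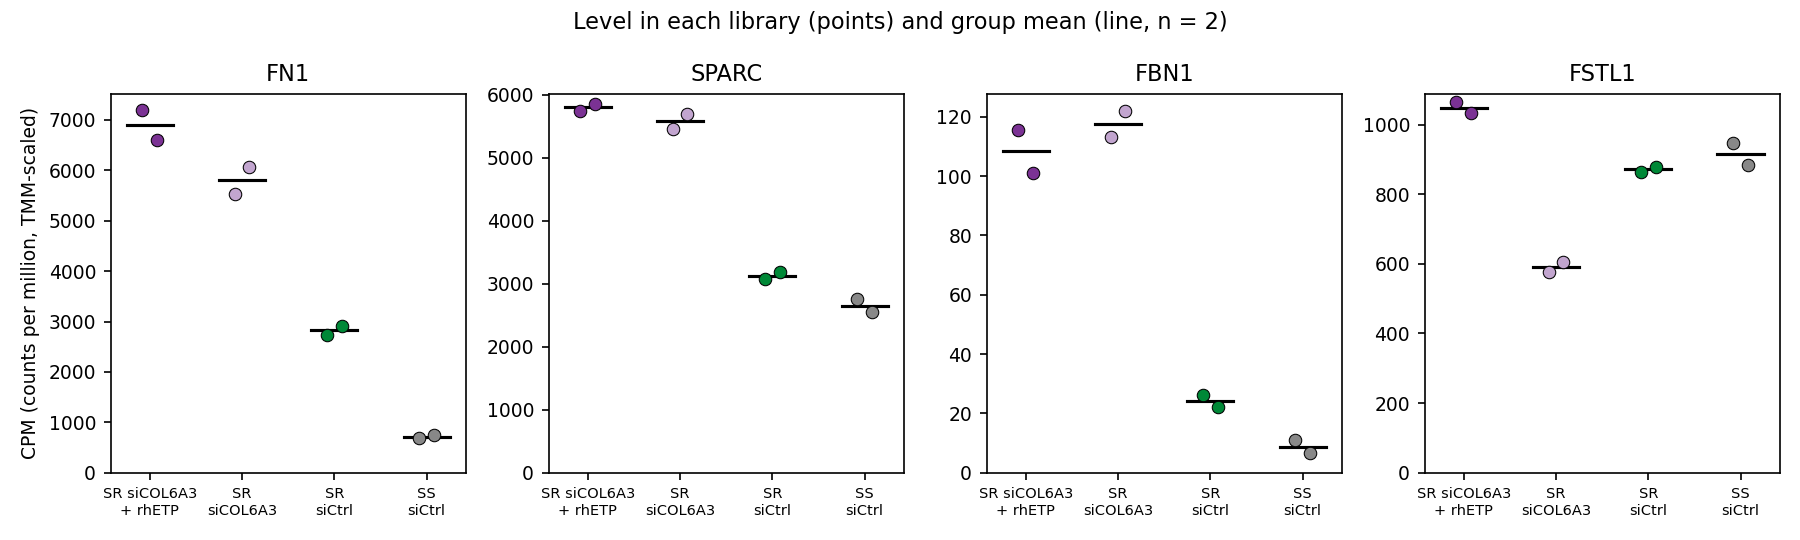
CPM (linear axis from 0, a scale of its own in each panel) of FN1, SPARC, FBN1 and FSTL1 in each of the 8 libraries, 1 panel a gene; points are libraries and lines are group means (n = 2). FN1 runs between 691 and 7198 CPM with no overlap between groups, FBN1 between 6.70 and 122 CPM, and FSTL1 is lowest in silenced cells without endotrophin.

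Fibrillin-1 had the widest relative range of the 4. FBN1 had 116 and 101 CPM in silenced cells with endotrophin and 113 and 122 CPM in silenced cells, against 26.1 and 22.0 CPM in resistant control cells and 10.9 and 6.70 CPM in sensitive control cells. The silenced groups overlapped each other and lay above both control groups, which did not overlap either. Silenced cells held 4.89-fold more FBN1 than resistant control cells (log2 fold change 2.29, SE 0.16), and resistant control cells 2.71-fold more than sensitive control cells (1.44, SE 0.17; 0.83 on the log2(FPKM + 1) scale, which understates low genes). With endotrophin the FBN1 level differed by -0.12 (log2, SE 0.15) from that without it. The sensitive libraries rested on 399 and 207 FBN1 counts, the fewest of any member, and their SD was 33.9% of the mean, against 5.34% to 11.9% of the mean in the other groups. Over the 8 libraries the log2 CPM of FBN1 spanned 4.09, the 37th widest span of 10752 genes with a mean of at least 5 CPM, and that of FN1 3.38, the 66th.

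SPARC spanned less than FN1 and FBN1. It had 5746 and 5855 CPM in silenced cells with endotrophin and 5455 and 5701 CPM in silenced cells, against 3075 and 3186 CPM in resistant control cells and 2752 and 2552 CPM in sensitive control cells. The silenced groups stood close together, 45.2 CPM apart at their nearest libraries, and well above both control groups, which did not overlap and were 323 CPM apart at their nearest libraries. The log2 fold change was 0.83 (SE 0.044) between silenced and resistant control cells, 0.24 (SE 0.044) between resistant and sensitive control cells, and 0.06 (SE 0.044) between silenced cells with and without endotrophin. Its span over the 8 libraries was 1.20 on the log2 scale, the 1573rd widest.

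FSTL1 ran in another order. It had 1065 and 1033 CPM in silenced cells with endotrophin, 576 and 606 CPM in silenced cells, 865 and 878 CPM in resistant control cells, and 946 and 884 CPM in sensitive control cells. Silenced cells were thus lowest and silenced cells with endotrophin highest, with the 2 control groups between them and only 5.90 CPM apart at their nearest libraries. The log2 fold change was -0.56 (SE 0.061) between silenced and resistant control cells, where the other 3 genes were higher. With endotrophin FSTL1 was 0.83 (SE 0.061) above silenced cells without it, and 0.27 (SE 0.061) above resistant control cells. Between resistant and sensitive control cells it differed by -0.07 (SE 0.061). An exon of FSTL1 also holds the microRNA hsa-miR-198, which poly(A) libraries do not measure.

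**Figure D2:**
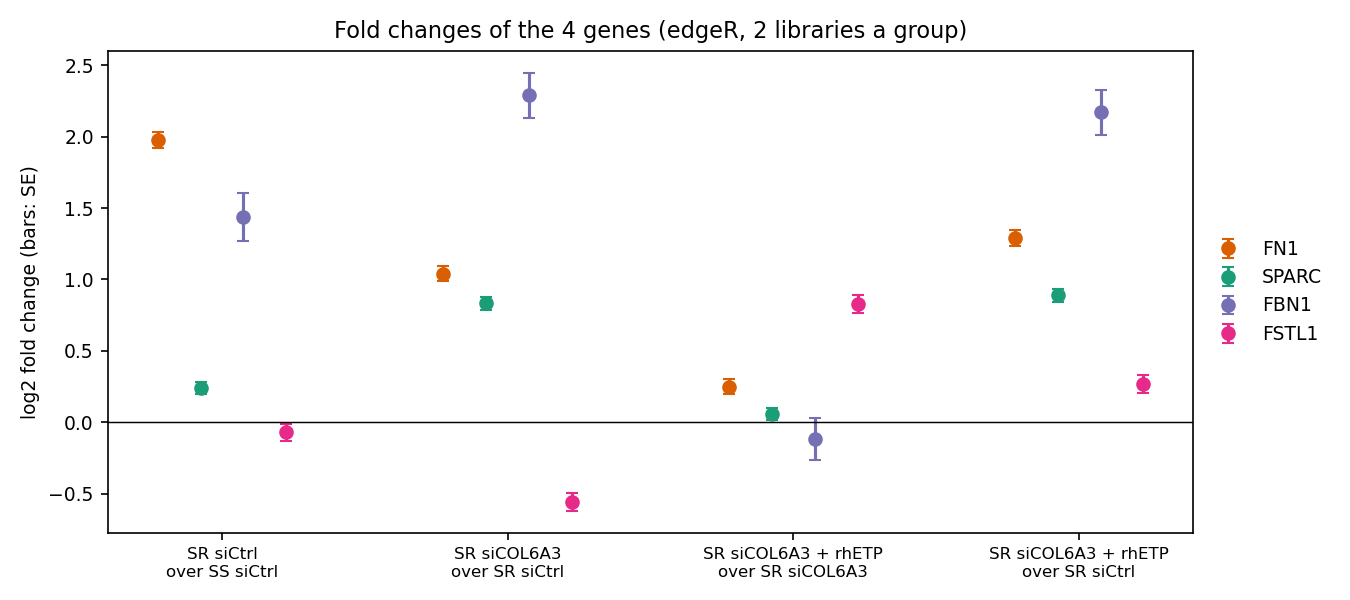
log2 fold change (edgeR, bars are SE) of the 4 genes in 4 comparisons, with the group over its comparator named under each. FN1, SPARC and FBN1 lie above 0 in the siRNA comparison and FSTL1 below it at -0.56; in the endotrophin comparison FSTL1 lies highest at 0.83 and FBN1 at -0.12.

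Counted by the test threshold (edgeR quasi-likelihood, Benjamini-Hochberg adjusted p under 0.05), 3 of the 4 genes were higher and 0 lower in resistant than in sensitive control cells, where 6.52% of all genes tested were higher, 9.3% lower and 15.8% either. With the siRNA in resistant cells 3 were higher and 1 lower, where 11.4% of all genes were higher, 10.9% lower and 22.3% either. With endotrophin in silenced cells 2 were higher, FN1 and FSTL1, and 0 lower, where 4.41% of all genes were higher, 3.36% lower and 7.77% either. Silenced cells with endotrophin had all 4 higher than resistant control cells, where 10.1% of all genes were higher, 8.93% lower and 19% either. Against sensitive control cells, silenced cells with endotrophin had all 4 higher, where 13% of all genes were higher, 13.8% lower and 26.8% either. Silenced cells had 3 higher and 1 lower than sensitive control cells, where 13.1% of all genes were higher, 14.5% lower and 27.6% either. The groups overlapped in 1 case only, FBN1 with and without endotrophin, while the share of all genes whose groups did not overlap was 53%, 58.3%, 52%, 57.3%, 61.7% and 62.4% in these 6 comparisons. The genes were picked with such results in view, so nothing is read from these counts. The endotrophin call for FN1 was not kept in every setting. Without the first library with endotrophin the log2 fold change was 0.19 and missed the threshold. With all 8 libraries it was 0.21 by limma on the authors' FPKM (log2(FPKM + 1) scale) and also missed it. Without the first silenced library the edgeR value was 0.18. The call for FSTL1 in silenced cells with endotrophin over sensitive control cells (0.20) missed the threshold without the second sensitive library (0.15) or the first with endotrophin (0.18). The comparisons share groups with one another, so their values are given side by side only.

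FPKM values divide by a fixed length for each gene, with an implied 3451 bases for SPARC and 8993 for FN1. By that measure SPARC stood above FN1 in all 4 groups, whereas in CPM FN1 stood above SPARC in both silenced groups. Ranks were taken among 107 genes: the 4 described here and the lists of fibrillin microfibril, SPARC and follistatin family, and other matrix glycoproteins. FURIN and the TGFB genes were left out, but some enzymes and membrane proteins remained, such as ADAMTS6, LOXL1 and TMEFF1. On the FPKM scale SPARC was the highest of the 107 in all 4 groups. It stood at 1665 ± 21.2 FPKM (SD, n = 2) in silenced cells with endotrophin and 1646 ± 43.6 in silenced cells. In resistant control cells it stood at 914 ± 16.1 and in sensitive control cells at 755 ± 41.9. FN1 stood at 760 ± 46.7, 657 ± 40.1, 316 ± 12.5 and 78.4 ± 4.01 FPKM in the same order of groups, and was 2nd, 2nd, 4th and 8th of the 107. FSTL1 stood at 183 ± 4.04, 106 ± 3.32, 155 ± 0.502 and 158 ± 7.90 FPKM, and was 5th, 7th, 6th and 4th. FBN1 stood at 9.25 ± 0.886, 10.3 ± 0.502, 2.09 ± 0.265 and 0.746 ± 0.255 FPKM and was 23rd, 23rd, 36th and 52nd, so it was not among the abundant genes in any group. The thrombospondin THBS1 and the matricellular protein CCN1 were the other genes near the top: THBS1 was 3rd in all 4 groups, and CCN1 was 4th, 4th, 2nd and 2nd. Among all genes of the table, SPARC ranked between 13th and 20th in the 4 silenced libraries and between 52nd and 67th in the 4 control libraries. FN1 ranked 59th and 67th with endotrophin and 79th and 67th without it, 152nd and 144th in resistant control cells, and 838th and 764th in sensitive control cells.

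**Figure D3:**
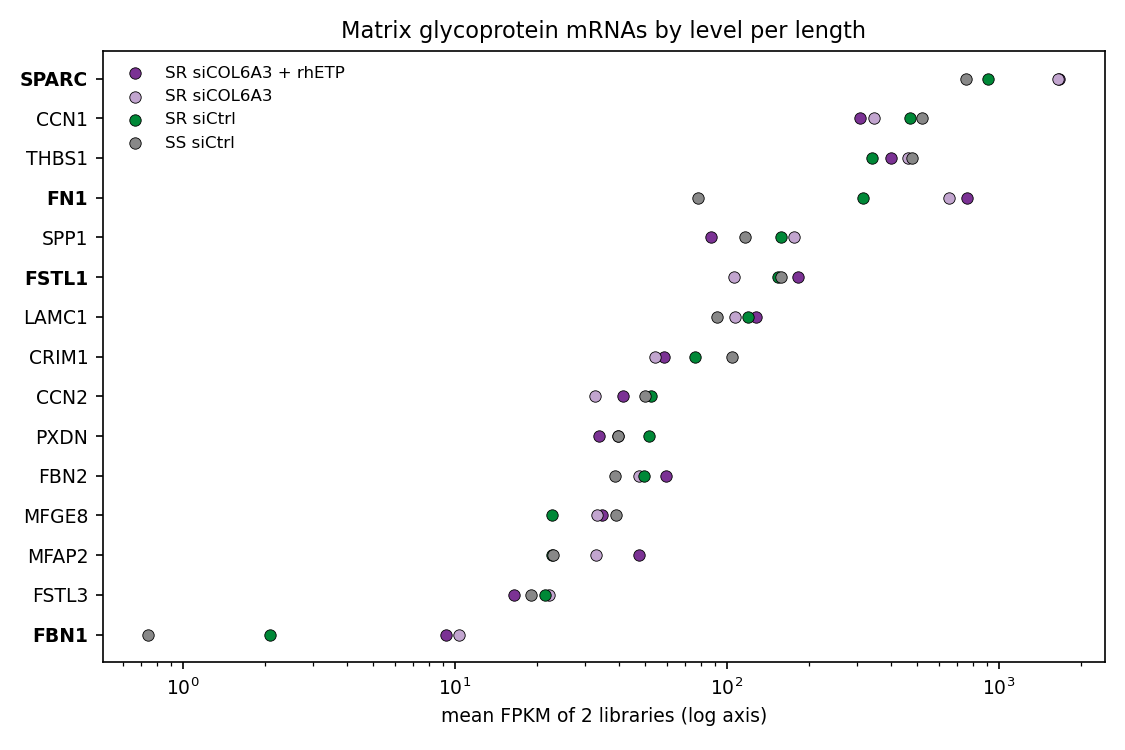
Mean FPKM (log axis, n = 2) of FBN1 and of the most abundant of 107 matrix glycoprotein and related genes. Each point is 1 of the 4 groups, and the 4 described genes are in bold. SPARC is highest in every group, FN1 is 8th of 107 in sensitive control cells and 2nd in silenced cells, and FBN1 lies far below the other 3.

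The make-up of the 4 changed with the groups. In sensitive control cells FN1 stood below FSTL1 per length, with a ratio of FPKM values of 0.461 and 0.532. The FN1 to FSTL1 ratio was 4.27 and 4.04 in silenced cells with endotrophin, 6.07 and 6.33 in silenced cells, and 1.99 and 2.10 in resistant control cells. FSTL1 relative to its family member SPARC was 0.113 and 0.107 in silenced cells with endotrophin, 0.0642 and 0.0646 in silenced cells, 0.171 and 0.167 in resistant control cells, and 0.209 and 0.210 in sensitive control cells. The replicates of a group agree closely in this ratio and no 2 groups overlap. FN1 relative to SPARC was 0.481 and 0.433 with endotrophin, 0.389 and 0.409 in silenced cells, 0.340 and 0.351 in resistant control cells, and 0.0963 and 0.112 in sensitive control cells.

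Fibrillin-1 stood below fibrillin-2 (FBN2) throughout, while FBN3 had group means of at most 0.00697 FPKM. FBN2, the fibrillin best known from development, had 695 and 617 CPM in silenced cells with endotrophin, 495 and 527 CPM in silenced cells, 519 and 553 CPM in resistant control cells, and 425 and 439 CPM in sensitive control cells. The FPKM ratio of FBN1 to FBN2 was 0.157 and 0.154 in silenced cells with endotrophin, 0.215 and 0.218 in silenced cells, 0.0473 and 0.0375 in resistant control cells, and 0.0242 and 0.0144 in sensitive control cells. No 2 groups overlap in this ratio. FBN2 rose in resistant against sensitive control cells (log2 fold change 0.31, SE 0.072, edgeR adjusted p = 0.00394). It did not pass the test with the siRNA (-0.07, adjusted p = 0.571), the step in which FBN1 differed most. With endotrophin FBN2 rose by 0.36 (SE 0.072, adjusted p = 0.00262), a call that was lost without the first library with endotrophin, where it was 0.27 (adjusted p = 0.0649).

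The likeness of profiles was measured as the root-mean-square difference of log2 CPM, centred on each gene's mean, over the 8 libraries. Among the 4, FN1 and FBN1 were closest at 0.50, SPARC and FSTL1 followed at 0.65 and FN1 and SPARC at 0.85, and FBN1 and FSTL1 were farthest apart at 1.68. Of 10748 other genes with a mean of at least 5 CPM, the nearest to FN1 was COL5A1, a chain of collagen V, at 0.14, with group means of 343 CPM in silenced cells with endotrophin, 267 in silenced cells, 145 in resistant control cells and 42.2 in sensitive control cells. The next were MAP2 (0.32), SOX4 (0.37), KCNMB4 (0.38) and VCAN (0.39), a large matrix proteoglycan. The group means of MAP2, SOX4, KCNMB4 and VCAN were lower with endotrophin than without it, whereas that of FN1 was higher. For VCAN they were close, at 21.3 against 22.9 CPM, and no test of these differences is given. The nearest to FBN1 was COL1A1, a chain of collagen I, at 0.24, with 155, 136, 28.2 and 10.8 CPM in the same order of groups, followed by FOXF1 (0.38), FBXO32 (0.43), MAP2 (0.43) and FLRT3 (0.44). The nearest to SPARC were TRIB2 (0.03), IL1RAPL1 and MYO10 (0.05 each), ELMOD2 (0.08) and GATA3 (0.09). Those to FSTL1 were HJURP (0.07) and WDR76, AURKB, NUSAP1 and PLK4 (0.09 each). HJURP had 99.6 CPM with endotrophin, 63.1 in silenced cells, 88.1 in resistant control cells and 89.7 in sensitive control cells. The small distances of the SPARC and FSTL1 neighbours go with the small spans of those 2 genes, whose own root-mean-square deviation was 0.50 and 0.31 against 1.29 for FN1 and 1.56 for FBN1. These distances are descriptions over 8 libraries.

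The partners of the 4 genes were taken as 161 genes in 5 lists, of which 127 were tested. These lists were chosen with earlier results of these data known. The shares called in them, here and below, are therefore descriptions, and nothing is read from their difference from all genes. In resistant against sensitive control cells 18 rose and 30 fell (37.8% of the 127, against 15.8% of all genes), with a median log2 fold change of -0.13 against 0.01 for all genes. With the siRNA 32 rose and 16 fell (37.8%, against 22.3%), with a median of 0.24 against 0.00 for all genes. With endotrophin 13 rose and 4 fell (13.4%, against 7.77%), with a median of 0.03. The counts depend on single libraries: without the first resistant control library 17 fell in place of 30, without the first silenced library 9 fell with the siRNA in place of 16, and without that library or without the first library with endotrophin 6 rose with endotrophin in place of 13. On the FPKM scales, where limma made fewer calls, the endotrophin calls named below for ANXA2, PXN, FBN2, MFAP2, INHBA and DDR1 were lost, as was the siRNA call for DIP2A.

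Fibronectin receptors and adhesion proteins moved in both directions. Of 30 genes for fibronectin assembly and receptors tested, 5 rose and 11 fell in resistant against sensitive control cells (53.3% of them, against 15.8% of all genes), with a median log2 fold change of -0.23. The main fibronectin receptor subunit ITGA5 had 138 and 155 CPM in resistant control cells, against 114 and 109 CPM in sensitive control cells, and rose by 0.39 (SE 0.10, edgeR adjusted p = 0.0085), a call lost without the second resistant control library (0.32, adjusted p = 0.0821). ITGAV, which also binds fibronectin, rose by 0.41 (adjusted p = 0.00365), a call lost without the first resistant control library (0.28, adjusted p = 0.0909). The adhesion-site adaptor paxillin (PXN) rose by 0.33 (adjusted p = 0.00222). The largest fall was that of FBLIM1, a filamin-binding adhesion protein, at -2.29 (adjusted p = 1.49e-07), and the heparan sulfate proteoglycan SDC3 fell by 0.91 on the log2 scale (adjusted p = 6.26e-05).

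With the siRNA 11 of the 30 rose and 6 fell (56.7%, against 22.3% of all genes), with a median of 0.22. ITGB8, the integrin chain that pairs with ITGAV and activates latent TGF-beta, had 191 ± 8.54 CPM in silenced cells and 12.8 ± 0.544 CPM in resistant control cells (SD, n = 2), a log2 fold change of 3.90 (SE 0.12, adjusted p = 9.74e-16). Syndecan-4 (SDC4), the co-receptor for the heparin-binding part of fibronectin, had 269 ± 1.06 CPM and 143 ± 0.999 CPM in the same 2 groups (0.91, SE 0.079, adjusted p = 2.9e-08). Syndecan-1 (SDC1) went the other way, at 287 ± 14.1 CPM in silenced cells and 397 ± 0.701 CPM in resistant control cells (-0.47, adjusted p = 0.000101). ITGA5 fell by 0.38 (adjusted p = 0.00772), so it was lower where FN1 was higher. This call was lost without the second resistant control library (-0.28) or the first silenced one (-0.29). Other integrin chains rose: ITGAV by 0.70 (edgeR adjusted p = 9.9e-06), ITGA4 by 0.38 (adjusted p = 0.00959) and ITGB1 by 0.21 (adjusted p = 0.00531). ITGA3 fell by 0.21 (adjusted p = 0.0254), and ITGB3, ITGB5 and ITGB6 did not pass the test. The calls for ITGAV, ITGA4, ITGB1 and ITGA3 in this comparison were not recomputed under the alternatives described below. With endotrophin 3 of the 30 rose and 0 fell (10%, against 7.77% of all genes): SDC4 by 0.49 (adjusted p = 0.000313), PXN by 0.30 (adjusted p = 0.0111, lost without the first library of either group) and the plasma membrane protein ANXA2 by 0.24 (adjusted p = 0.00191).

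Genes of the fibrillin microfibril followed. Of 24 tested, 3 rose and 3 fell in resistant against sensitive control cells (median -0.05), 3 rose and 2 fell with the siRNA (median 0.18) and 2 rose and 0 fell with endotrophin (median 0.11). The shares called were 25%, 20.8% and 8.33%, against 15.8%, 22.3% and 7.77% of all genes. TGFB2, a growth factor that microfibrils hold in latent form, had 35.9 ± 0.794 CPM in resistant control cells and 97.2 ± 11.8 CPM in sensitive control cells (-1.44, SE 0.14, adjusted p = 8.58e-08). The fibulin EFEMP1 had 7.01 ± 0.905 CPM in silenced cells and 1.94 ± 0.238 CPM in resistant control cells (1.85, SE 0.36, adjusted p = 0.00058). FURIN, the protease that trims profibrillin, fell with the siRNA to 38.2 ± 0.759 CPM, against 60.6 ± 1.51 CPM in resistant control cells (-0.67, adjusted p = 0.00214). The 2 that rose with endotrophin were FBN2 and MFAP2, a microfibril-associated glycoprotein (0.57, adjusted p = 0.0253), whose call was lost without the first silenced library or the second library with endotrophin.

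Relatives of SPARC and FSTL1 came next. Of 10 genes of the SPARC and follistatin family tested, 0 rose and 4 fell in resistant against sensitive control cells (median -0.87), 2 rose and 0 fell with the siRNA (median -0.20), and 1 rose and 0 fell with endotrophin (median -0.09). The shares called were 40%, 20% and 10%, against 15.8%, 22.3% and 7.77% of all genes. SPOCK1, a testican proteoglycan with the same modules as SPARC, had 3.84 ± 0.520 CPM in resistant control cells and 19.2 ± 3.53 CPM in sensitive control cells (-2.32, adjusted p = 1.71e-06). It stood at 10.0 ± 2.37 CPM in silenced cells, a rise of 1.38 over resistant control cells (adjusted p = 0.000607). Agrin (AGRN), a basement membrane proteoglycan with follistatin-like modules, fell by 0.82 on the log2 scale in resistant against sensitive control cells (adjusted p = 8.39e-06) and rose by 0.57 with the siRNA (adjusted p = 0.000452).

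Of 18 receptors and ligands of SPARC and FSTL1 tested, 2 rose and 2 fell in resistant against sensitive control cells (median 0.11), 5 rose and 2 fell with the siRNA (median 0.31), and 2 rose and 1 fell with endotrophin (median -0.03). The shares called were 22.2%, 38.9% and 16.7%, against the same 15.8%, 22.3% and 7.77%. INHBA, the activin A chain and a ligand of the follistatin family, had 199 ± 5.93 CPM in silenced cells with endotrophin, 140 ± 5.56 in silenced cells, 83.5 ± 3.02 in resistant control cells and 37.5 ± 8.81 in sensitive control cells. It rose in all 3 steps, by 0.50 with endotrophin (adjusted p = 0.00855), 0.75 with the siRNA (adjusted p = 7.22e-05) and 1.16 in resistant against sensitive control cells (adjusted p = 3.43e-07). DDR1, a collagen receptor that binds near the SPARC site on collagen, rose by 0.92 with the siRNA (adjusted p = 7.03e-07) and fell by 0.57 on the log2 scale when endotrophin was added (adjusted p = 0.000791). DIP2A, a reported receptor of FSTL1, was lower with the siRNA at 35.8 ± 1.24 CPM, against 52.8 ± 4.40 CPM in resistant control cells (-0.56, adjusted p = 0.00442), a call lost without the first resistant control library (-0.46, adjusted p = 0.0592).

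Other matrix glycoproteins went in both directions. Of 46 tested, 8 rose and 10 fell in resistant against sensitive control cells (median -0.16), 11 rose and 6 fell with the siRNA (median 0.48), and 5 rose and 3 fell with endotrophin (median -0.11). The shares called were 39.1%, 37.0% and 17.4%, beside 15.8%, 22.3% and 7.77% over all genes. Tenascin-C (TNC), which binds fibronectin, had 46.8 ± 0.357 CPM in silenced cells with endotrophin, 29.5 ± 4.09 in silenced cells, 59.0 ± 11.6 in resistant control cells and 16.5 ± 3.52 in sensitive control cells. It rose with FN1 in resistant against sensitive control cells (1.84, adjusted p = 5.55e-08) but fell with the siRNA (adjusted p = 0.000121). The laminin chain LAMB1 fell by 1.71 (adjusted p = 8.21e-12) and the matrilin MATN2 by 1.21 (adjusted p = 5.13e-09) on the log2 scale in resistant against sensitive control cells. With the siRNA the matricellular CCN3 rose by 1.92 (adjusted p = 1.42e-07) and CTHRC1, a secreted collagen-repeat protein, by 1.04 (adjusted p = 3.4e-05), while CCN2 fell by 0.70 on the log2 scale (adjusted p = 1.79e-05). Osteopontin (SPP1) had 159 ± 4.75 CPM in silenced cells with endotrophin and 314 ± 15.2 CPM in silenced cells (-0.98, SE 0.082, adjusted p = 7.6e-08), and CCN3 fell by 1.18 in the same comparison (adjusted p = 0.000188).

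**Figure D4:**
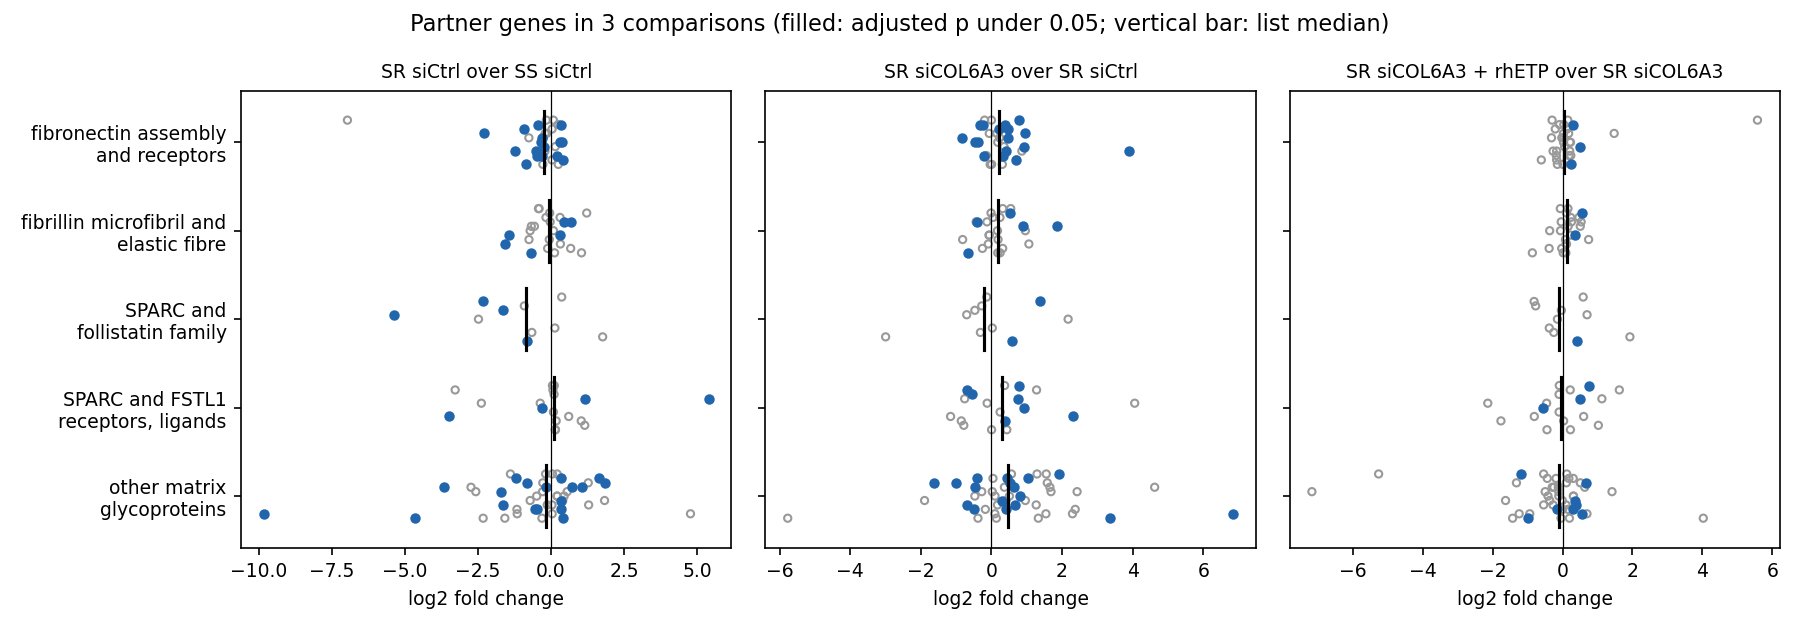
log2 fold change (edgeR) of the tested genes of the 5 partner lists in 3 comparisons, each point a gene, with the genes past the threshold filled and the bar at the list median. With the siRNA the median of the other matrix glycoproteins is 0.48 and that of the SPARC and follistatin family -0.20. Values wider than the 3.90 of ITGB8 belong to genes of at most 7.38 CPM in any library. Some of these passed the threshold, such as IGFBP7 at -5.38 and BMP2 at 5.41 in resistant against sensitive control cells.

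Markers of other liver cells were set beside these levels. For fibroblasts and stellate cells, the liver cells best known for these proteins, the summed level of 10 such genes was 343 to 349 CPM in silenced cells with endotrophin, 305 to 318 in silenced cells, 141 to 144 in resistant control cells and 129 to 137 in sensitive control cells, with 9, 9, 5 and 5 of the 10 above 1 CPM. The sum was mostly COL1A1 and THY1: THY1 stood at 152 CPM with endotrophin, 135 in silenced cells, 92.8 in resistant control cells and 93.9 in sensitive control cells. In resistant against sensitive control cells COL1A1 rose by 1.38 (edgeR adjusted p = 4.14e-08) and none of the other 9 passed the test. ACTA2 was at -0.53, COL3A1 at -1.18, PDGFRA at -0.91 and THY1 at -0.02. Of all genes, 6.52% were higher and 9.3% lower in that comparison. With the siRNA 5 of the 10 rose, where 11.4% of all genes were higher and 22.3% either. COL1A1 rose by 2.27 (adjusted p = 2.28e-11), THY1 by 0.54 (adjusted p = 0.000235) and ACTA2 by 0.65 (adjusted p = 0.0106). At group means of no more than 6.52 CPM, COL3A1 rose by 1.87 (adjusted p = 0.0373) and PDGFRB by 1.03 (adjusted p = 0.0486). With endotrophin none of the 10 passed the test, where 7.77% of all genes did. The calls for these markers were not recomputed under the alternatives. The defining genes DCN, LUM and COL1A2 had group means of at most 0.337, 2.11 and 2.19 CPM. The summed level of the 10 hepatocyte genes ran in the order of FN1, at 75.0 to 75.7 CPM in silenced cells with endotrophin, 62.7 to 67.8 in silenced cells, 48.0 to 59.3 in resistant control cells and 31.4 to 40.5 in sensitive control cells, with no overlap between groups. It was almost wholly SERPINA1, at 47.2, 35.2, 23.5 and 17.1 CPM in that order of groups, and CPS1, at 27.8, 29.4, 29.7 and 18.4 CPM. The part of either set of markers in the levels of the 4 genes was not tested. The antisense gene CLMAT3, which overlaps SPARC, held 4 to 79 counts, against at least 78801 counts for SPARC.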

How the data were processed

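Poly(A) RNA-seq of 8 SK-Hep1 libraries, 2 in each of 4 groups taken from the labels, was analysed from 2 deposited tables. The authors deposited read counts per gene, not normalized, and FPKM values, which equal count over gene length and library total; the implied length was the same in all libraries. The build is GRCh38, per the submitters' processing notes; the sources used here do not give aligner, counter, annotation or strandedness. The table held 28279 entries, of which 1 named no gene and held 0 counts; 26998 symbols matched RefSeq. Among counts of 1 to 20, 72.8% to 77.6% were even, against 49.6% to 50.9% of counts of at least 500, so halved counts were tried.

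Counts were tested in R 4.3.3 with edgeR 4.0.16 (filterByExpr, TMM, factors 0.981 to 1.02, quasi-likelihood, 1 coefficient per group, 4 residual degrees of freedom), 2-sided, with Benjamini-Hochberg adjustment over the 15684 genes tested and a threshold of 0.05; genes said to rise or fall passed it. CPM are counts scaled to library size after TMM. The fit was run on counts simulated with the spread it had itself estimated, as a check of the code alone and not of the calls. Gene-level SE come from the fit. With 2 libraries against 2, precision is limited by replicate spread, not by depth. The members and lists were chosen with earlier results of these data known. Partner genes named are up to 3 a list and direction, those with the largest change. They were taken among called genes with a mean of at least 5 CPM and groups that do not overlap. In the siRNA comparison, FBN2 and the integrin chains other than ITGB8 and ITGA5 were named outside this rule. Likeness used log2(CPM + 0.5) and the 5 nearest genes. Alternatives were DESeq2 1.42.0, library totals alone, a stricter filter or none (CPM over 1), halved counts, only the 2 groups compared, the replicate number as a term, limma 3.58.1 on log2(FPKM + 1) and log2(FPKM + 0.1), and leaving out each library.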

Additional observations from a re-analysis of the deposited data

How the results depend on the processing

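The values of the 4 genes, the list counts and the partner genes named by the rule were recomputed under 17 alternatives. Of 408 alternative values for the 4 genes in 6 comparisons, 403 kept direction and side of the threshold, 5 lost the call and 0 reversed. In the main fit 21 of the 24 gene and comparison pairs passed the threshold, and the others stayed not called. The 4 genes were picked with such results known, so nothing is read from this tally. For FN1 with endotrophin over silenced cells (0.25), log2(FPKM + 1) and log2(FPKM + 0.1) both gave 0.210 with the call lost, and leaving out 1 library gave 0.178 to 0.312. For FSTL1 in silenced cells with endotrophin over sensitive control cells (0.20), leaving out 1 library gave 0.151 to 0.249, with the call lost without the second sensitive library or the first with endotrophin. FBN1 in resistant over sensitive control cells (1.44) was 0.83 on log2(FPKM + 1), which understates low genes, and 1.14 to 1.84 when 1 library was left out. Partner genes that fell in resistant against sensitive control cells numbered 17 to 31 when 1 library was left out (30 with all), and those that fell with the siRNA 9 to 17 (16 with all). With endotrophin 6 to 15 rose (13 with all) and 4 to 6 fell (4 with all); on both FPKM scales 2 rose and 2 fell, and with only the 2 groups compared 8 fell. Over all genes, endotrophin gave 1218 calls, against 494 and 490 on the 2 FPKM scales and 651, 703 and 772 without the second library with endotrophin, the first silenced one and the first with endotrophin. The cause was not tested. Of 60 gene and comparison pairs named from the lists, 30 lost the call under at least 1 alternative and 0 reversed.

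The replicate numbers share only a number: deviations of same-numbered libraries correlated at -0.0271 to 0.0355. With the replicate block the endotrophin comparison gave 1368 calls in place of 1218, FN1 in it was 0.252, and no call of the 4 genes changed.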
